A study of Homo sapiens with 3 samples.

Results

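Circular RNA levels were compared between PANC-1, a cell line of pancreatic ductal adenocarcinoma, and HPDE, a non-tumour line of human pancreatic ductal epithelium. A circular RNA (circRNA) was identified by its back-splice junction, given in the deposited lists as an hg19 start and end, and the lists were joined where both positions were identical. Of 15270 junctions listed in either line (17156 with the third line of the study, SW1990, also of pancreatic ductal adenocarcinoma), 6666 had at least 10 back-splice reads over both libraries and lay outside the mitochondrial genome, the ribosomal scaffold chrUn_gl000220 and 1 short locus of chromosome 14, regions that were left out because they held 81.2% of the HPDE and 79.0% of the PANC-1 back-splice reads.

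Each line was sequenced as 1 library of total RNA, and the sample labels name no genetic change or drug. The media differed: HPDE grew without serum, in keratinocyte medium with epithelial growth factor and bovine pituitary extract, and PANC-1 in DMEM with fetal bovine serum, so line and medium cannot be told apart. With 1 library per line no difference between conditions could be tested. Levels are in RPM, the deposited scaling of reads to a library total, in which 1 HPDE read was worth 0.0240 RPM and 1 PANC-1 read 0.0273 RPM. A circRNA is called higher or lower where its PANC-1 level was at least 2 times, or at most 0.5 times, the HPDE level. Ratios carry 95% intervals that cover counting error only, since reads without molecular identifiers are not independent molecules. A junction missing from the deposited list of a line was taken as 0 reads, which assumes that no filter removed it. In place of 0 reads, 3 reads, the one-sided 95% limit for a count of 0, were used. The ratio at that limit is written "at least". The intervals of the other ratios bound both sides and would put the ratio somewhat lower. Outside the left-out loci, 264156 reads were from HPDE and 395610 from PANC-1.

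A circRNA forms when the spliceosome joins the end of an exon back to the start of the same or an earlier exon, which closes the exons between them into a ring without free ends. Such rings resist exonucleases and can outlast the linear transcript. Their level depends on transcription of the host gene and on how often the exons are back-spliced rather than joined in line. Circles often start at exon 2, since the first exon lacks the splice acceptor that back-splicing needs. Several, among them the circles of ZNF609, RTN4 and FOXK2, have been described in pancreatic or other cancers.

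Host genes were assigned to 5312 of the 6666 circRNAs (79.7%), which held 51.1% of the HPDE and 61.3% of the PANC-1 reads compared. The unnamed junctions, 1354 in number, therefore include many of the most abundant ones. Only 1255 circRNAs (18.8%) had a deposited symbol, from the SW1990 list. The other names were inferred: 2218 from matching exon distances, 998 from an end shared with a named junction and 841 from overlap with a named host. Several leading hosts, among them SLC16A3, COL18A1, LAMB3 and TRA2B, carry a name inferred from matching exon distances, which the deposited lists do not state. For 4695 circRNAs both ends could be placed on the exon edges of an annotated transcript. The following junctions carry the main results: strong signals of a single line, large differences with reads in both lines, and 2 hosts, SQSTM1 and PKM, whose circles share the final exon in both lines but start at different exons. The last 15 bases of the final exon are in lower case and the first 15 bases of the exon to which it was joined are in capitals, read 5′ to 3′ from the exons of GENCODE 29 transcripts (GRCh38), not from the sequenced reads.
SLC16A3, exons 2 to 4 (PANC-1): ggcccccttcgggagGTGAGGCGGAACCAA
COL18A1, exons 32 to 36 (PANC-1): ttccggaaggtccagGGCAGTTTCCGTTTG
RTN4, exons 2 to 3 (higher in PANC-1): gttgattctctgaagTTGTTGACCTCCTGT
TRA2B, exons 4 to 6 (higher in PANC-1): tagcagatcatacagGCAAATCCTGATCCT
LAMB3, exons 15 to 18 (HPDE): gggacttcctaacagGCGAACTCTCCAGGG
IFI6, exons 2 to 4 (lower in PANC-1): cgctgcagagcctcgGTCTAGTGACGGAGC
LMNB2, exons 3 to 4 (lower in PANC-1): agtgtgttcgaggagCGCCAAGAAGAGGGA
SQSTM1, exons 6 to 7 (HPDE): cacatctcccgccagGCATTGAAGTTGATA
SQSTM1, exons 2 to 7 (PANC-1): cacatctcccgccagATGAGGACGGGGACT
PKM, exons 2 to 8 (HPDE): cgcatgcagcacctgGACCTCAGCAGCCAT
PKM, exons 6 to 8 (PANC-1): cgcatgcagcacctgGTGCCGACTTCCTGG

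PANC-1 carried the larger set of circRNAs. Its deposited list held 13341 junctions, against 3370 for HPDE and 3764 for SW1990. Outside the left-out loci the median junction had 7 reads in PANC-1, 13 in HPDE and 10 in SW1990. The shares below rest on this difference between the lists. PANC-1 levels were higher for 4805 of the 6666 (72.1%) and lower for 1401 (21%), and 460 circRNAs lay within 2-fold. Most calls came from junctions seen in 1 line: 4357 were seen in PANC-1 alone and 1040 in HPDE alone, and with at least 10 reads against 0 each of these passes the 2-fold threshold by construction. The 1269 junctions with reads in both lines split more evenly, 448 higher (35.3%) and 361 lower (28.4%), with a median log2 ratio of 0.26. That split turned with the scaling. Dividing by total back-splice reads shifted every log2 ratio by -0.61 and gave 307 higher and 489 lower, dividing by back-splice reads outside the left-out loci shifted it by -0.77 (278 and 527), TMM by -0.22 (398 and 411) and the median of ratios by -0.26 (391 and 416). An exact conditional binomial test on the reads, which compares these 2 libraries and not conditions, was also passed by 4748 of the higher and 1366 of the lower calls, at a Benjamini-Hochberg adjusted p under 0.05. It uses the same reads as the calls. Junctions with at least 10 reads against 0 pass it by construction too, so these counts add no separate support.

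**Figure D1:**
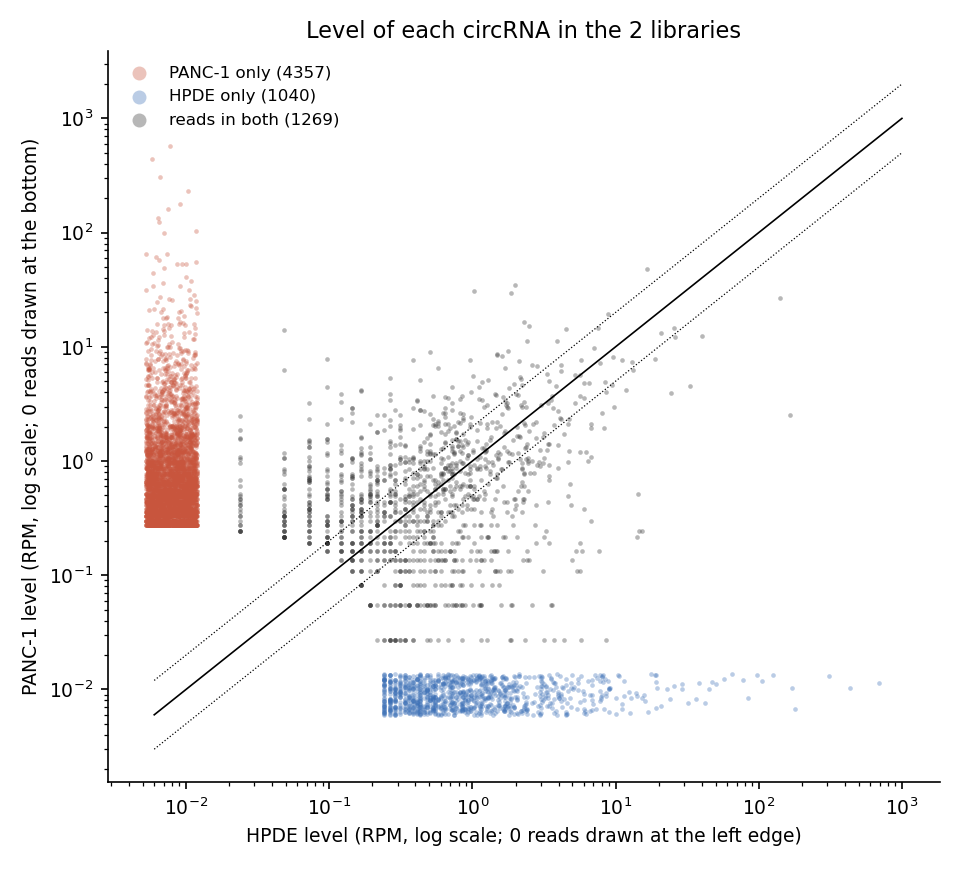
Level of each of the 6666 circRNAs in HPDE (x axis) and PANC-1 (y axis), in RPM on log scales, with junctions at 0 reads drawn, spread at random, at the left edge or the bottom. The solid line marks equal levels and the dotted lines a 2-fold difference. The 4357 junctions of PANC-1 and 1040 of HPDE alone reach levels as high as any of the 1269 junctions shared by both.

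In both lines the highest levels belonged to junctions absent from the other line, and most of these had no host name. The top HPDE junctions, chr17:39780459-39780716 (687 RPM, 28646 reads), chrX:153578084-153592732 (435 RPM) and chr12:52910891-52914092 (310 RPM), had 0 PANC-1 reads. In PANC-1 the junctions chr6:26188987-26189229 (568 RPM, 20821 reads), chr11:65268834-65273125 (441 RPM) and chr11:2018654-2018893 (178 RPM) had 0 HPDE reads. The first of each trio spanned only 258 and 243 bases.

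Among named hosts the leading PANC-1 circle came from SLC16A3, the monocarboxylate transporter that exports lactate from glycolytic cells. Its exon 2 to 4 junction had 11336 reads in PANC-1 (309 RPM, interval 303 to 315), 0 in HPDE, and was at least 4297-fold higher. The leading named HPDE circle was that of IFI6, an interferon-induced mitochondrial protein that limits apoptosis. IFI6 had 6915 reads in HPDE (166 RPM, 162 to 170) and 93 in PANC-1 (2.54 RPM, 2.05 to 3.11), a level 65.4-fold lower (53.3 to 81.1). The linker histone gene HIST1H1C followed in both lines, but through different junctions: those of HPDE had 5244 and 3493 reads, those of PANC-1 8537 and 2388, and none had a read in the other line. Summed over the gene, HIST1H1C differed little, 209.5 RPM in HPDE against 298 RPM in PANC-1 (1.42-fold, 1.38 to 1.46). HPDE alone had reads at a GAPDH junction (4414 reads, at least 1294-fold lower in PANC-1) and at the LAMB3 junction of exons 15 to 18 (4086 reads, 98.0 RPM, at least 1198-fold lower). PANC-1 alone had reads at a junction of the cytolinker PLEC (3782 reads, at least 1434-fold higher). These HIST1H1C, GAPDH and PLEC junctions were named by overlap and had no exon pair placed, so back-splicing between exon edges is not shown for them.

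A smaller set had reads in both lines and still differed strongly. Of 946 circRNAs with at least 5 reads in each, 126 had an interval wholly above 2-fold and 106 wholly below, and 77 of all 6666 had one wholly within 2-fold. On the high side stood the exon 4 to 6 circle of TRA2B, a splicing activator of the SR family, with 43 HPDE and 1121 PANC-1 reads (1.03 against 30.6 RPM, 29.6-fold, 21.9 to 41.2). MED13L, a Mediator kinase-module subunit, had 5 and 142 reads (32.3-fold, 13.5 to 100.99). Its partner kinase CDK19 had 6 and 107 reads (20.3-fold, 9.02 to 56.5). The chromatin remodelling subunit ARID1B had 5 and 121 reads (27.5-fold, 11.5 to 86.3). The zinc-finger gene ZNF292 had 7 and 152 (24.7-fold, 11.7 to 62.5). CCDC40, which helps assemble motile cilia, had 11 and 195 (20.2-fold, 11.02 to 41.1). The arginyl-tRNA synthetase RARS had 6 and 106 (20.1-fold, 8.93 to 55.98). The cytolinker DST had 5 and 85 reads (19.3-fold, 7.97 to 61.1). P4HB, a disulfide isomerase of the endoplasmic reticulum, had 16 and 281 (19.97-fold, 12.1 to 35.4) at exons 3 to 4. All of these HPDE counts were under 50, and the intervals are wide for that reason.

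On the low side, after IFI6, the circle of exons 3 to 4 of the nuclear lamin LMNB2 had 586 HPDE and 8 PANC-1 reads (64.4-fold lower, 32.5 to 150). In SW1990 the same LMNB2 junction had 748 reads, so PANC-1 alone of the 3 lines was low there. AXIN1, the scaffold of the complex that destroys beta-catenin, had 317 and 6 reads at exons 6 to 7 (46.5-fold lower, 21.1 to 128). The sterol demethylase CYP51A1 had 206 and 5 (36.2-fold lower, 15.3 to 113). The ephrin receptor EPHB4 had 244 and 6 at exons 5 to 6 (35.8-fold lower, 16.2 to 98.4). The amyloid precursor APP had 221 and 6 (32.4-fold lower, 14.6 to 89.2), the alanyl-tRNA synthetase AARS 236 and 7 (29.6-fold lower, 14.2 to 74.5), and the membrane-binding annexin ANXA2 602 and 19 (27.9-fold lower, 17.7 to 46.6). A junction named ATAD3A by overlap, with no exon pair placed, had 640 and 9 reads (62.5-fold lower, 32.7 to 137).

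Some abundant circles lay within 2-fold as deposited. The exon 2 to 4 circle of the nuclear RNA-binding protein HNRNPC had 1070 HPDE and 536 PANC-1 reads (25.7 against 14.6 RPM), a ratio of 0.570 (0.513 to 0.633). The endoplasmic reticulum protein BCAP31 had a ratio of 0.636 (0.569 to 0.712) and the translation regulator GCN1L1 0.691 (0.594 to 0.803). A second EPHB4 circle, of exons 11 to 12, had 403 and 299 reads and a ratio of 0.844 (0.724 to 0.982), in contrast to the exon 5 to 6 circle of that gene. Ratios were 0.924 for THAP4 (0.783 to 1.09), 0.732 for FKBP8 (0.602 to 0.888), 1.33 for the long noncoding RNA PVT1 (1.11 to 1.58) and 1.37 for NMRAL1 (1.17 to 1.61). Of these intervals only that of THAP4 includes 1. HNRNPC passed below 0.5 under each of the 4 other scalings. BCAP31, GCN1L1 and FKBP8 did so under both scalings by back-splice reads, and the EPHB4 circle of exons 11 to 12 under the scaling by reads outside the left-out loci.

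**Figure D2:**
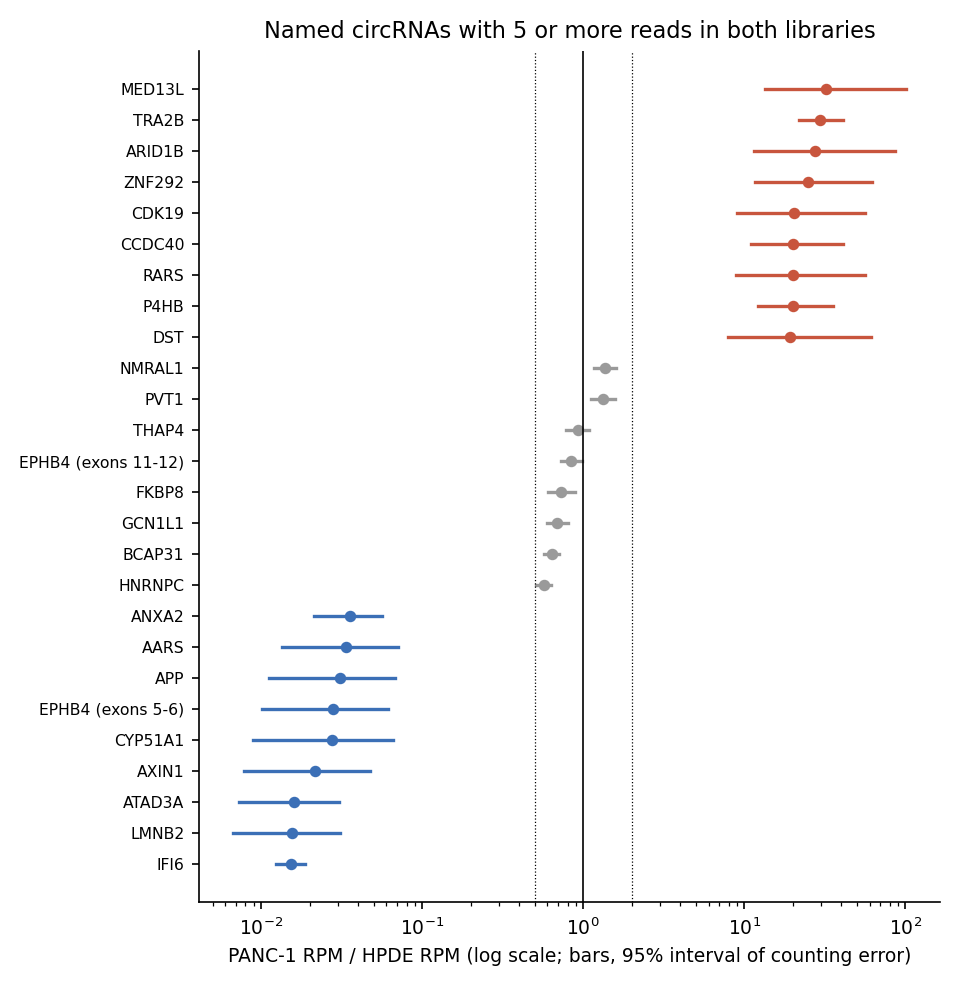
Ratio of the PANC-1 to the HPDE level on a log scale for circRNAs described in the text, with at least 5 reads in both libraries, with bars for the 95% interval of counting error. Dotted lines mark 0.5 and 2. Red circRNAs lie 19.3-fold or more above HPDE, blue ones 27.9-fold or more below, and grey ones within 2-fold.

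Summing all junctions of a gene gave 3300 hosts with at least 10 reads, of which 2380 had the higher level in PANC-1 (72.1%), 359 the lower one (10.9%) and 561 a level within 2-fold, with a median log2 ratio of 2.43. With hosts from the symbols of the deposited SW1990 table and positions relative to them alone, 1053 were higher and 181 lower. The low hosts are therefore fewer among sums than among single junctions. Of the named circRNAs seen in HPDE only, 75.2% (71.9 to 78.3%) had a host with PANC-1 reads elsewhere, and of those seen in PANC-1 only, 45.4% (43.7 to 47.1%) had a host with HPDE reads.

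The largest host ratios with at least 5 reads in each line came from genes of mixed function. The chromatin remodelling gene ARID1B had 5 reads in HPDE and 334 in PANC-1, from 18 junctions (76.0-fold, 32.2 to 235). The tubulin-folding cofactor TBCD had 17 and 590 reads (39.5-fold, 24.4 to 68.2). The organic anion transporter SLCO4A1 had 26 and 874 (38.2-fold, 25.9 to 58.9). The calcium pump ATP2A2 of the endoplasmic reticulum had 6 and 188 (35.6-fold, 16.1 to 98.3). The guanine nucleotide exchange factor PLEKHG2 had 17 and 532 (35.6-fold, 22.0 to 61.6). Further hosts between 29.4- and 32.5-fold higher were the ubiquitin ligase RNF13, the nucleoside and monoamine transporter SLC29A4, TANC1, the lipid flippase family member ATP9B, the DNA-repair kinase PRKDC (29.8-fold) and CDK19.

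With no HPDE read at any named junction stood SLC16A3, then the elongation factor subunit SUPT5H (3557 reads from 5 junctions, at least 1348-fold). COL18A1, a basement membrane collagen, had 2226 reads (60.7 RPM, at least 844-fold), all from exons 32 to 36. The splicing factor PRPF19 had 1334 (at least 506-fold), HNRNPA3 had 1251 (at least 474-fold) and the epithelial protease inhibitor SPINT2 had 929 (at least 352-fold). SUPT5H had 3 reads in SW1990, and COL18A1, PRPF19, HNRNPA3 and SPINT2 had none there, so these were high in 1 of the 3 lines.

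Hosts lower in PANC-1 were led, after IFI6, by 2 receptors. EGFR, the epidermal growth factor receptor, had 1881 reads in HPDE (45.1 RPM) and 62 in PANC-1 (1.69 RPM), 26.7-fold lower (20.7 to 34.9). All but 3 of the HPDE reads came from 1 junction, chr7:55221702-55242531, which was named by overlap, had no exon pair placed and 1878 reads, while the circle of exons 14 to 15 was higher in PANC-1 (55 against 3 reads, 20.8-fold, 6.77 to 104). TGFBR2, the type II receptor of TGF-beta, had 87 and 5 reads (15.3-fold lower, 6.31 to 48.3). Others were the thioesterase ACOT8 (11.5-fold lower), the RNA demethylase ALKBH5 (10.9-fold lower, 6.07 to 21.6) and RABGGTB (10.2-fold lower). HAUS4, MAPKAPK5, the vault protein MVP, the histone methylation cofactor WDR5 and the replication clamp loader RFC4 were 8.65- to 9.99-fold lower. Of the 173 hosts with reads in HPDE only, those with most reads were GAPDH, LAMB3, the Hippo pathway scaffold AMOTL2 (1339 reads, at least 392-fold lower), ADAP1 (1215, at least 356-fold), the snRNP core protein SNRPB (1006, at least 295-fold) and GIPC1 (948, at least 278-fold). Of the ADAP1 reads, 1213 came from 1 junction of 90175 bases, named by a shared end and with no exon pair placed. GAPDH had 1338 reads in SW1990, GIPC1 716 and ADAP1 115, and LAMB3, AMOTL2 and SNRPB had none there.

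Different circles of the same gene could go in opposite directions. In 267 of the 656 hosts with 2 or more circRNAs of at least 20 reads (40.7%, 36.9 to 44.6%), 1 such circRNA was at least 4-fold higher and another at least 4-fold lower, and 138 of these hosts were within 2-fold as a sum, 95 higher and 34 lower. A junction with at least 20 reads in 1 line and 0 in the other passes 4-fold by construction. The count therefore includes hosts that merely hold 1 such junction from each line. PKM, the glycolytic pyruvate kinase, had 2719 HPDE reads on a circle of exons 2 to 8 that had no PANC-1 read, and 959 PANC-1 reads on a circle of exons 6 to 8 that had no HPDE read. Both PKM circles end at the same exon, and the gene as a whole stood at 65.3 against 40.01 RPM (ratio 0.613, 0.575 to 0.654). SQSTM1, the p62 receptor of selective autophagy, had 1766 HPDE reads at exons 6 to 7 and 1141 PANC-1 reads at exons 2 to 7, each absent from the other line. Its sum differed less, with a ratio of 0.737 (0.684 to 0.795). RACK1, a scaffold on the ribosome, had 1380 HPDE and 167 PANC-1 reads at exons 2 to 3, 255 HPDE reads alone at exons 3 to 4, and 65 PANC-1 reads alone at exons 4 to 7. The actin cross-linker ACTN4 had 173 HPDE reads at exons 4 to 7, and in PANC-1 608 reads at exons 2 to 7 and 992 at exons 9 to 10. P4HB, whose exon 3 to 4 circle was higher in PANC-1, had 705 HPDE reads on the circle of exons 2 to 4 and 0 in PANC-1, so that the gene as a sum was 2.26-fold lower (1.96 to 2.60). RANGAP1, which activates the GTPase Ran, had 383 HPDE reads at exons 2 to 6, and 58 PANC-1 reads at exons 2 to 5.

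The same held more widely for the leading circle of a gene. Among 542 hosts with 2 or more of the compared circRNAs and at least 20 reads in each line, the same junction led in both lines in 141 (26.0%, 22.4 to 29.9%). Where another led, the PANC-1 leader was at 0 in HPDE in 326 of 401 hosts (81.3%). The HPDE leader was at 0 in PANC-1 in 226 of them (56.4%). Zeros were frequent among all compared circRNAs too. Of those with PANC-1 reads, 4357 were at 0 in HPDE and 1269 were not. Of those with HPDE reads, 1040 were at 0 in PANC-1 and the same 1269 were not. PANC-1 also listed more circles per gene, a mean of 1.62 over 2822 hosts against 1.28 over 1460 in HPDE. The focal adhesion kinase PTK2 held most, 14 in PANC-1 and 2 in HPDE, followed by the spindle checkpoint gene MAD1L1 (13 and 8) and the focal adhesion protein TNS3 (12 and 2).

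Gene lists are described by their host sums, beside the 72.1% higher and 10.9% lower among all hosts and the overall median log2 ratio of 2.43, with list medians on the same scale. Another scaling shifts every list and the overall median by the same amount. With file symbols and positions alone the overall median was 2.06 over 1585 hosts, and the focal adhesion (1.64), pancreatic cancer driver (1.64), chromatin (1.71) and cell cycle lists (1.87) then lay below it, while those of nuclear transport (2.75) and of circRNAs reported in pancreatic cancer (2.13) lay above it, each on the other side than with all names. Genes of the hemidesmosome and basement membrane, which anchor epithelium to its matrix, did not move as one: 8 of 15 hosts were higher, 5 lower and 2 within 2-fold (median 1.86). All 5 low hosts had reads in HPDE only. Laminin-332 chains gave 4086 reads for LAMB3 and 301 for LAMA3 (7.22 RPM, at least 88.2-fold lower), its integrin receptor 414 for ITGB4 (9.93 RPM, at least 121-fold lower) and 43 for ITGA6 (at least 12.6-fold lower), and the anchoring-fibril collagen COL7A1 417 (10.0 RPM, at least 122-fold lower). High in PANC-1 were the linkers PLEC (4.61-fold, 4.35 to 4.87) and DST (26.6-fold, 12.6 to 67.3), the laminin chain LAMA5 (3.62-fold, 3.17 to 4.16) and the proteoglycan HSPG2 (6.68-fold, 5.498 to 8.18). ITGA3 (1.62-fold, 1.45 to 1.80) and LAMB1 (ratio 0.619, 0.470 to 0.810) were within 2-fold, and NID1, ITGB1, ITGA2 and COL4A5 had 37, 21, 18 and 11 PANC-1 reads with none in HPDE. In SW1990, ITGB4 had 507 reads, LAMA3 33, ITGA6 15 and LAMB3 and COL7A1 none.

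**Figure D3:**
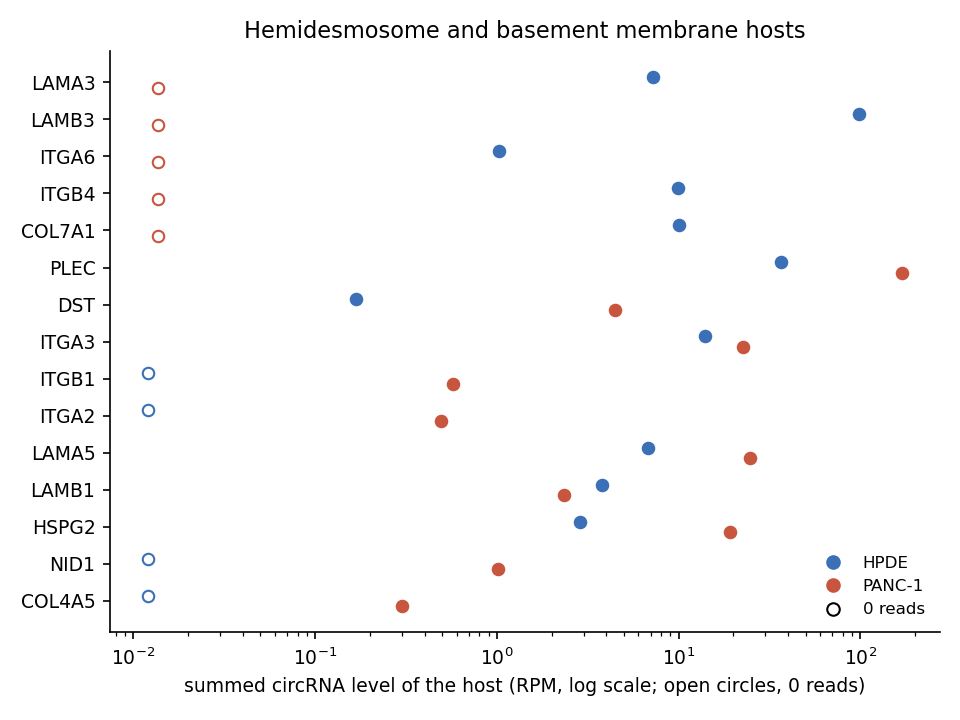
Summed circRNA level in RPM (log scale) of the 15 hemidesmosome and basement membrane hosts in HPDE (blue) and PANC-1 (red), with open circles for 0 reads. LAMA3, LAMB3, ITGA6, ITGB4 and COL7A1 lie between 1.03 and 98.0 RPM in HPDE and at 0 reads in PANC-1.

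Of 12 hosts for epithelial junctions and identity, 8 were higher, 2 lower and 2 within 2-fold (median 1.75). The low hosts were the adherens junction cadherin CDH1 (43 HPDE reads, 0 PANC-1 reads, at least 12.6-fold) and the epithelial transcription factor GRHL2 (19 and 0 reads, at least 5.57-fold). Higher were SPINT2, the tight junction genes OCLN (11 PANC-1 reads and 0 in HPDE) and TJP1 (2.73-fold, 1.59 to 4.85), and the polarity genes PARD3 (11.2-fold, 5.16 to 28.9) and PRKCI (2.57-fold, 1.47 to 4.68). The adherens junction catenins CTNNA1 and CTNNB1 and the junction protein PKP4 had 209, 87 and 58 PANC-1 reads and 0 in HPDE. The p120 catenin CTNND1 (ratio 0.503, 0.373 to 0.672) and the polarity gene LLGL2 (1.81, 1.48 to 2.22) were within 2-fold. Keratins were not used to check the lines, since no junction that could be named fell in the 16 keratin genes listed. The markers of fibroblasts, immune, endothelial, acinar and endocrine cells had no named junction either. Unnamed junctions, among them the leading ones of both lines, may lie in any of them, so nothing is said here on keratin circles.

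The mesenchymal and matrix list split as well, 6 of 12 hosts higher, 5 lower and 1 within 2-fold (median 1.19). COL18A1 and ZEB1, a repressor of epithelial genes (4 and 127 reads, 36.1-fold, 13.8 to 135), were higher. The collagen-modifying enzymes PLOD1 (3.54-fold, 2.60 to 4.88) and PLOD2 (7.79-fold, 4.33 to 15.2) were higher too. Low or absent in PANC-1 were fibronectin FN1 (335 HPDE reads, at least 98.2-fold), the receptor AXL (175, at least 51.3-fold), its ligand GAS6 (177, at least 51.9-fold), the fibrillin FBN2 (58, at least 17.0-fold) and P4HB. FN1, AXL and FBN2 had no reads in SW1990 either, and GAS6 had 178 there.

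Focal adhesion hosts numbered 19, with 14 higher, 4 lower and 1 within 2-fold (median 2.63). TNS3 was 26.5-fold higher (18.3 to 39.9), PTK2 13.0-fold (9.45 to 18.2), TRIO 4.40-fold (3.48 to 5.60), DOCK1, an activator of Rac, 10.4-fold (7.36 to 14.97) and vinculin VCL 6.18-fold (4.53 to 8.60). The low ones were TNS4 (158 reads in HPDE only), the epithelial integrin ITGB6 (33), FERMT1 (14) and GIT2 (15 and 6 reads, a ratio of 0.455 with an interval from 0.145 to 1.24). In the list of actin and intermediate filament genes 24 of 33 were higher and 4 lower (median 2.51). AHNAK was 4.999-fold (4.47 to 5.60) and ACTN4 10.6-fold higher (9.04 to 12.5), non-muscle myosin MYH9 was within 2-fold (1.58, 1.41 to 1.78), and LMNB2 (7.06-fold, 5.53 to 9.13) and ACTN1 (8.10-fold, 5.90 to 11.4) were lower. FLNA is among the higher hosts only through 1 short PANC-1 junction, close to the unnamed HPDE junction chrX:153578084-153592732. The latter had 18157 HPDE and 0 PANC-1 reads, was counted for no host and may itself lie in FLNA. The direction of FLNA is therefore uncertain. Without FLNA, 23 of 32 hosts were higher and 4 lower (median 2.46).

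Receptor kinase, RAS and PI3K hosts were 29 higher, 4 lower and 7 within 2-fold of 40 (median 2.58). Besides EGFR, the low ones were the receptors FGFR3 (277 HPDE reads, at least 81.2-fold) and AXL and the kinase RPS6KA1 (79 HPDE reads). The hepatocyte growth factor receptor MET had 113 PANC-1 reads and 0 in HPDE, and the adaptor SHC1 291 and 0 (at least 110-fold higher). AKT2 was 6.26-fold higher (5.16 to 7.65) and AKT1 had a ratio of 0.516 (0.442 to 0.600), so that the kinase paralogs AKT1 and AKT2 stood on opposite sides of equality. IGF1R was 6.37-fold higher (4.70 to 8.79), and ERBB2 (0.934, 0.761 to 1.15), EPHB4 (0.631, 0.560 to 0.709) and EPHA2 (0.565, 0.487 to 0.655) were within 2-fold.

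For TGF-beta, WNT and Hippo signalling 26 of 35 hosts were higher, 4 lower and 5 within 2-fold (median 2.85). The Hippo effectors YAP1 (96 reads) and WWTR1 (145) had reads in PANC-1 only, at least 36.4- and 55.0-fold, while AMOTL2, which holds YAP1 back, had them in HPDE only. The giant cadherin FAT1 had 188 and 530 reads (3.21-fold higher, 2.71 to 3.81). The WNT transducer DVL1 had 396 PANC-1 reads and 0 in HPDE (at least 150-fold), and AXIN1 was 5.22-fold lower as a sum (4.22 to 6.50). The other low hosts were TGFBR2 and the ubiquitin ligase SMURF2 (32 and 6 reads).

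Among genes recurrently altered in pancreatic cancer 18 of 21 hosts were higher, 1 was lower (TGFBR2) and 2 were within 2-fold (median 2.92). STK11, a tumour suppressor kinase, had 364 PANC-1 reads from exons 2 to 8 and 0 in HPDE (at least 138-fold). RREB1, a zinc-finger factor of RAS signalling, had 30 and 75 (2.84-fold higher, 1.84 to 4.499), and the TGF-beta transducer SMAD3 4 and 88 (25.02-fold higher, 9.43 to 93.9). The damage kinase ATM had 6 and 82 reads (15.5-fold, 6.84 to 43.6). The chromatin remodelling subunits ARID1A (45 PANC-1 reads), ARID2 (34) and SMAD2 (39), which transduces TGF-beta signals, had none in HPDE, and SMARCA4 had 7 and 38 reads (6.17-fold, 2.72 to 16.4). Of these 21 hosts, 11 had 0 HPDE reads and none had 0 PANC-1 reads, beside 1621 and 173 of all 3300 hosts.

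Interferon-induced genes had 7 hosts, 4 of them lower and 3 higher (median -2.40). The low ones were IFI6, the deconjugating protease USP18 (97 HPDE reads and 0 PANC-1 reads, at least 28.4-fold), the ISG15 ligase HERC5 (47, at least 13.8-fold) and PARP14 (18, at least 5.28-fold). The high ones were TRIM25 (38 PANC-1 reads), the RNA-editing enzyme ADAR (34) and PARP9 (12), each with 0 in HPDE. IFI6 held nearly all reads of this list, and the next host was below 100 reads.

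In the list for glycolysis and lactate export 11 of 16 hosts were higher, 1 lower and 4 within 2-fold (median 3.75). Besides SLC16A3, aldolase ALDOA (575 reads, at least 218-fold), enolase ENO1 (145, at least 55.0-fold) and lactate dehydrogenase LDHA (93, at least 35.3-fold) had reads in PANC-1 only, and the phosphofructokinase PFKP had 31 and 342 (12.5-fold, 8.68 to 18.8). GAPDH had them in HPDE only. PKM, PGK1 (1.93, 1.68 to 2.21), HK1 and TKT were within 2-fold. SLC16A3 had 1791 reads in SW1990, none of them at the PANC-1 junction.

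In the lists below, numbers are hosts higher, lower and within 2-fold. Proteins of endoplasmic reticulum folding and shape had 17, 2 and 5 (median 2.99), with RTN4 at 83 and 1277 reads (17.5-fold higher, 14.01 to 22.1), the glucosidase subunit PRKCSH 2.88-fold higher (2.39 to 3.47) and the glycosylation subunit RPN2 3.83-fold lower (2.24 to 6.92). Translation factors and tRNA synthetases had 15, 4 and 5 (median 1.99), and 3 of the 4 low ones were synthetases: AARS (2.21-fold lower, 1.79 to 2.76), FARSA (2.85-fold, 2.23 to 3.68) and KARS (6.80-fold, 3.96 to 12.5). RARS was 4.12-fold higher (3.08 to 5.60), and GCN1L1 was within 2-fold (1.44, 1.29 to 1.62). RNA-binding and splicing genes had 33, 2 and 14 (median 1.92), with RBM39 2.59-fold lower (2.13 to 3.17), PTBP1 with 84 reads in HPDE only and HNRNPL with 508 in PANC-1 only.

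Chromatin regulators had 52 higher hosts, 1 lower (KAT6A, 31 reads in HPDE only) and 12 within 2-fold (median 2.54), with BAZ1B 11.9-fold (9.11 to 15.7), SETD3 5.38-fold (4.18 to 7.01) and CHD2 14.1-fold higher (8.81 to 23.8). Cell cycle genes had 28, 3 and 7 (median 2.46), with RANGAP1 4.16-fold lower (3.26 to 5.35), the centrosome gene CEP70 4.09-fold higher (2.96 to 5.73) and MAD1L1 within 2-fold (1.86, 1.49 to 2.34). DNA replication and repair had 28, 4 and 11 (median 2.19), with FANCL 5.85-fold higher (4.45 to 7.81) and the RNA polymerase II subunit POLR2A at a ratio of 0.525 (0.397 to 0.690). The nuclear pore and transport list had 27, 3 and 6 (median 2.39), with the importin IPO7 27.6-fold (19.0 to 41.5) and the exportin XPO1 2.06-fold higher (1.70 to 2.51). The lists of ubiquitin ligases and deubiquitinases together had 51, 9 and 14 (median 1.96), with FBXW7 at 2 and 295 reads (168-fold higher, 46.03 to 1392) and USP22 2.28-fold lower (1.77 to 2.95). Vesicle traffic had 55, 3 and 14 (median 2.92), with the adaptor subunit AP3D1 4.66-fold higher (3.61 to 6.08) and APP, lower at 1 junction, within 2-fold as a sum (1.92, 1.67 to 2.22). Its low hosts included ARFGAP2 (8.57-fold, 5.40 to 14.3) and STX16 (53 reads in HPDE only). The AP3D1 sum includes 305 PANC-1 reads from a junction of 53540 bases, named by overlap and with no exon pair placed.

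Hosts of widely reported circRNAs had 49, 1 and 7 (median 2.85), with ZNF609 at 77 and 1108 reads (16.4-fold, 13.0 to 20.9), ZKSCAN1 7.23-fold (5.82 to 9.06) and CDYL 4.95-fold higher (3.97 to 6.21). Hosts of circRNAs reported in pancreatic cancer had 18, 0 and 7 (median 2.13), with FOXK2 17.9-fold (11.5 to 29.3) and the cell cycle factor MYBL2 9.02-fold higher (6.07 to 13.9). Histone genes had 2 named hosts, HIST1H1C and H2AFV (86 PANC-1 reads and 0 in HPDE), and nuclear noncoding RNAs 1, SNHG1 (24 and 0). Both counts cover named junctions only. Abundant unnamed junctions, such as chr6:26188987-26189229 and chr11:65268834-65273125 of PANC-1, could belong to either list and were not counted.

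**Figure D4:**
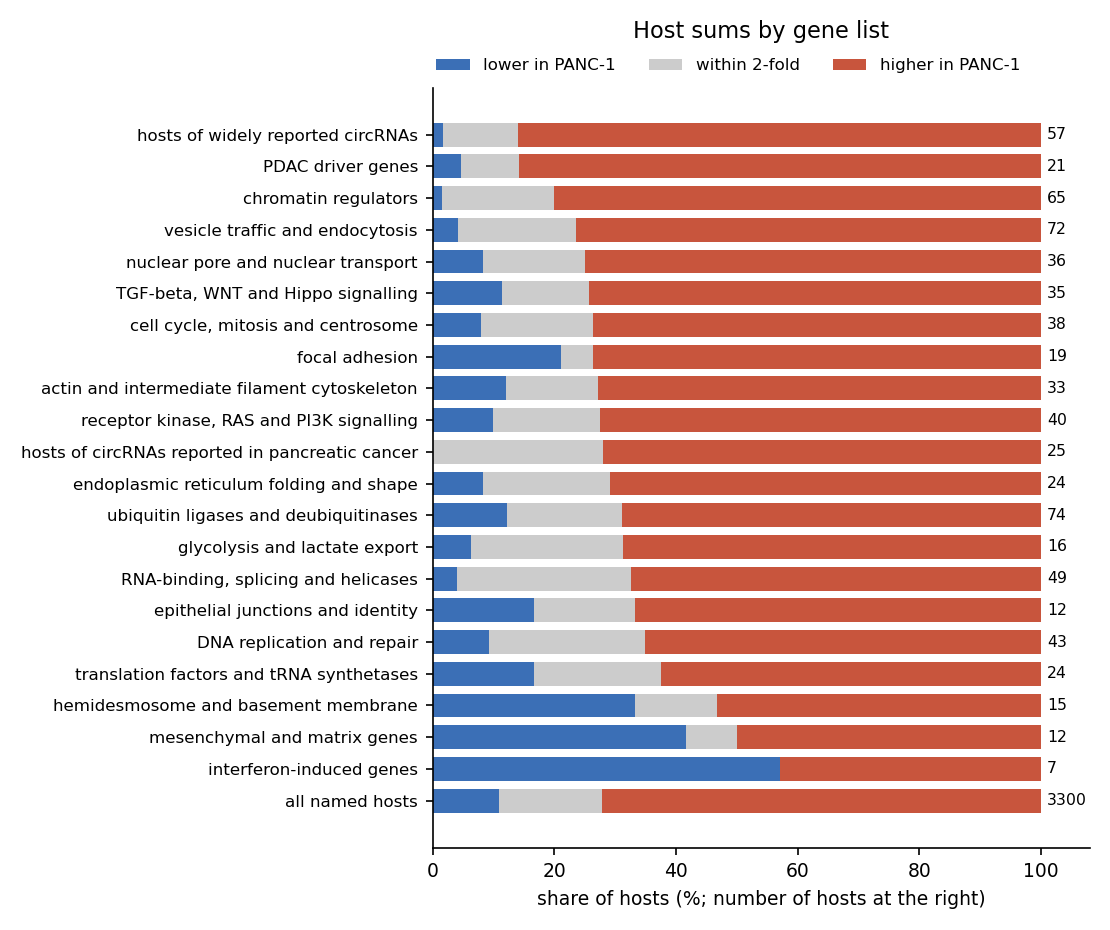
Share of hosts (%) that were lower, within 2-fold or higher in PANC-1, for the 21 gene lists with at least 5 hosts and, at the bottom, all 3300 named hosts, with the number of hosts at the right. Lower hosts make up 57.1% of interferon-induced, 41.7% of mesenchymal and 33.3% of basement membrane hosts, beside 10.9% of all hosts.

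Shared and single-line circles also differed in build. The median genomic span was 3230 bases for junctions with reads in both lines, 6685 for PANC-1 only and 2697 for HPDE only, and spans under 500 bases made up 10.7% (9.07 to 12.6%), 7.69% (6.91 to 8.52%) and 17.5% (15.2 to 19.9%). Exon edges of the host were also checked among circles not themselves named from exon distances. Both ends lay on them in 91.5% of the shared (89.4 to 93.3%), 80.3% of the PANC-1-only (78.3 to 82.1%) and 75.1% of the HPDE-only junctions (70.6 to 79.2%). Some of these circles took their name by a shared end or overlap from a circle named from exon distances. These shares are therefore not free of that rule. Where an exon pair was placed, a median of 3, 4 and 3 exons was circled, with median spliced lengths of 353, 479 and 347.5 bases. Exon 2 opened the circle in 34.5% (31.6 to 37.4%), 32.5% (30.8 to 34.2%) and 23.0% (19.7 to 26.5%), and an annotated first exon in 9 of all 4695. Circles of a single exon were 6.99% (5.52 to 8.70%), 2.76% (2.21 to 3.41%) and 5.74% (4.03 to 7.89%). Names from exon distances need a span of at least 1000 bases, which leaves out most single-exon circles. Without them, circles of a single exon were 8.64% (6.77 to 10.8%), 4.35% (3.33 to 5.56%) and 10.97% (7.72 to 14.99%), those opened by exon 2 were 33.5% (30.2 to 36.96%), 29.8% (27.4 to 32.3%) and 20.6% (16.3 to 25.6%), and the median number of exons was 3, 3 and 2. SW1990 listed 48.5% of the shared junctions (45.7 to 51.3%) and 12.2% (11.2 to 13.2%) and 12.02% (10.1 to 14.2%) of those seen in PANC-1 or HPDE alone. These intervals treat circRNAs as independent, which circles of 1 gene are not.

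**Figure D5:**
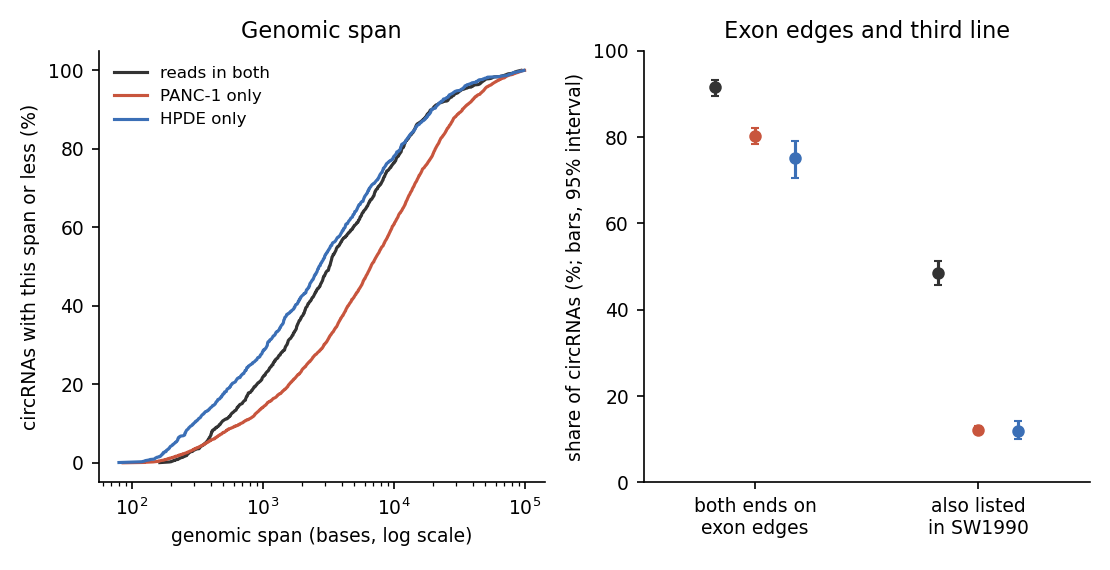
Left, cumulative share of circRNAs (%) by genomic span in bases (log scale), for junctions with reads in both lines and in either line alone. Right, share (%) with both ends on exon edges of the named host, and share listed in SW1990, with 95% exact binomial intervals. Shared junctions stand highest in both, at 91.5% and 48.5%.

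The share of higher circRNAs varied by chromosome from 60.5% of 223 on chromosome 20 to 81.2% of 298 on chromosome 10. With reads in both lines, the median log2 ratio was lowest on chromosome 20 (-0.90, 48 circRNAs) and highest on chromosome 18 (1.29, 19 circRNAs). Chromosome 19 also had a median below 0 (-0.47, 81 circRNAs), and chromosome 15 had one above it (0.86, 67 circRNAs). Under the scaling with the largest shift, all chromosomes move by -0.77 together and keep this order.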

How the data were processed

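Total RNA of each line was sequenced from 1 NEBNext Ultra library per line. Per the submitters' processing notes, TopHat2, TopHat and HTSeq were used on hg19. For the circRNA caller and its filters, the sources used here give no name. The authors deposited, per the file headers, RPM for each back-splice junction, and for SW1990 also the read count and a host symbol. Dividing RPM by the smallest RPM of a table gave whole reads, within 0.05, for 100% of values, and in SW1990 they matched the deposited read count in 3764 of 3764 rows. Which reads the RPM totals count is not stated. The deposited HPDE and PANC-1 lists each have 1 emptied line, not analysed here.

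Ratios are of RPM, with exact conditional binomial intervals, and RPM intervals are exact Poisson. Shares have exact Clopper-Pearson intervals. Host sums use every named junction outside the left-out loci.

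No hg19 annotation was used. Hosts came from the SW1990 symbols, then from an end shared with, or an overlap with, junctions of 1 named host, and then from genes between named neighbours that hold, in 1 GENCODE 29 transcript, an exon start and end exactly as far apart as the junction (spans of at least 1000 bases). The last kind was kept only where distances to at least 2 nearby junctions equalled those between the exon pairs. No coordinate was converted. Of 1632 SW1990 circRNAs named in this way with their own host left out, 1626 regained their symbol (99.6%). The settings were chosen on that check over 5 versions, whose shares ran from 95.5 to 99.6%, so the share is not an independent estimate. Among SW1990 circRNAs with a deposited symbol, named from the other deposited symbols, shared ends were right in 811 of 811 cases and overlaps in 387 of 387. Names by shared end or overlap were also passed on from junctions whose own name was inferred. The check does not cover those.

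The members, gene lists and naming settings were chosen with earlier results of these data known. The circRNAs named are, by a rule, the 8 highest of each line, the 10 largest and 10 smallest ratios with at least 5 reads in both, the 10 with most reads in each line alone and the 8 most abundant whose interval lies within 2-fold. For hosts the rule takes the 12 largest and 12 smallest ratios, 6 seen in each line alone, the 8 most abundant that went both ways, and for each list the 3 with most reads. A few genes that the rule names are not reported here. Of unnamed junctions at most 3 per line are printed. Other list members and the single circles of P4HB and RANGAP1 were named after their values were seen. Tools were Python 3.11.15, numpy 2.4.6, scipy 1.17.1, pandas 2.3.3, matplotlib 3.10.9, R 4.3.3 and edgeR 4.0.16 (TMM factors only).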

Additional observations from a re-analysis of the deposited data

How the results depend on the processing

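Of 75 recomputed values under 16 settings, 63 kept their direction and stayed within 1.5 times, or within the counting interval, of the value reported. The median log2 ratio of circRNAs with reads in both lines was -0.35 with total back-splice reads as the divisor, -0.51 with those outside the left-out loci, 0.034 with TMM and 0 with the median of ratios, which sets it there by construction. A minimum of 20 reads left 2708 higher circRNAs, and one of 40 reads left 1353 higher and 632 lower circRNAs and 1136 higher hosts. At a 4-fold threshold 227 hosts were lower. File symbols and positions alone named fewer hosts, 1053 higher and 181 lower. With junctions placed on exon pairs only, an alternative chosen after seeing the data, 910 circRNAs were lower. Thinning PANC-1 to the HPDE reads left 3583 higher and 1348 lower circRNAs. No paired analysis was possible because each line has 1 library, and no library could be left out. Nothing here measures the spread between cultures. A junction at 0 reads is one that the deposited list of that line does not hold. Whether it was below detection or removed by a filter was not tested. Host sums miss the 20.3% of circRNAs without a name.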
